A study of Mus musculus with 27 samples.

Results

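The imprinted Dlk1-Dio3 domain of mouse chromosome 12 was followed through the differentiation of Zfp512b knockout stem cells by the rows of 5 genes, Dlk1, Meg3, Rian, Mirg and Dio3, among the 25209 genes measured. The genes were chosen by name with the measured differences of KO4 and KO8 from WT cells at each stage already known, so these differences are given as a description, with no p. Where a count of them that passed the threshold is given, the share of all genes that passed stands beside it and nothing is read from the count. In cultures taken through cardiomyocyte differentiation (CM), all 5 genes lay higher in KO8 than in KO4. At that stage Dio3 lay below the WT libraries in KO4 and above them in KO8. The higher level of all 5 genes in KO8 was not seen in naive cells, primed cells or neural progenitor cells (NPC). There the base means of the 5 genes differed by at most 1.33 times between the clones' tables. Over all genes this ratio also spread less at those stages than in CM. In naive cells Meg3, Rian, Mirg and Dio3 lay outside its 5th to 95th percentiles. The split of Dio3 around WT was not seen in primed cells or NPC. In naive cells it could not be assessed, because only base means were available for Dio3.

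RNA was taken from embryonic stem cells of the mouse line V6.5 and from 2 lines derived from them, KO4 and KO8. In these a terminator of transcription was placed behind the third exon of Zfp512b by CRISPR-Cas9, together with mCherry or puromycin resistance; each line is 1 clone, kept for its small gain in proliferation, and the WT cells were not taken through this selection. Naive cells (Day 0) were kept in LIF together with inhibitors of GSK3 and MEK, and primed cells (Day 2) in serum with LIF. CM cultures (Day 7.5) came from embryoid bodies grown with vitamin C, and NPC cultures (Day 10) from embryoid bodies grown with retinoic acid. There were 3 libraries each of WT, KO4 and KO8 at the naive stage and 2 each at the primed, CM and NPC stages, 27 in all, and no label says that they were grown as separate cultures, so errors and p-values measure only the spread between these libraries.

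An imprinted gene is read from the copy inherited from one parent. In this domain Dlk1, Rtl1 and Dio3 encode proteins and are known to be expressed from the paternal copy, whereas the long noncoding RNAs Meg3, Rian and Mirg are expressed from the maternal copy, and clusters of microRNAs and small nucleolar RNAs lie among them. The balance between the parental copies is set by a region upstream of Meg3 that is methylated on the paternal copy, and in mouse pluripotent cells the expression of the maternal RNAs is known as a mark of intact imprinting. DLK1 is a transmembrane relative of the Notch ligands that is abundant in embryonic mesoderm and in precursor cells. DIO3 is the deiodinase that inactivates thyroid hormone.

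On the mm9 assembly the 5 genes lie in the order Dlk1, Meg3, Rian, Mirg and Dio3, all on the plus strand, over 828.3 kb. Dlk1 spans chr12:110691033-110701546, Meg3 chr12:110779211-110809936, Rian chr12:110842155-110899919, Mirg chr12:110973191-110987665 and Dio3 chr12:111517278-111519307. Between the end of Dlk1 and the start of Meg3 lie 77.7 kb, and between the end of Mirg and the start of Dio3 529.6 kb. Rtl1 (chr12:110827404-110838540) and the noncoding Dio3os (chr12:111513594-111516278) lie within the domain on the minus strand. The annotation places Dlk1 and Dio3 among protein-coding genes and Meg3, Rian and Mirg among long intergenic noncoding RNAs. The counting rule for strand is not given in the sources used here, so reads of unannotated antisense transcripts cannot be told apart from those of the genes.

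The start regions of the genes that open and close the domain and of the first noncoding gene are shown because these 3 genes had the largest ratios of the pooled base means in CM cultures (for Dlk1, Meg3 and Rian the clones' own ratio is known only as a lower bound). Each is 250 bases before to 50 bases after the annotated start, from mm9, with every CG dinucleotide in capitals.
Dlk1, chr12:110690783-110691082, plus strand: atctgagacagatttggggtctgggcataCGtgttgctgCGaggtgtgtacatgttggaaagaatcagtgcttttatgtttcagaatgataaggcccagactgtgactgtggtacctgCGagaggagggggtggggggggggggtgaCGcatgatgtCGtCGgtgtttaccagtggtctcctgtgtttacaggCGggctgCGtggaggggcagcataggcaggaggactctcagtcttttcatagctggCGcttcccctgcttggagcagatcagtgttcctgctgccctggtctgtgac
Meg3, chr12:110778961-110779260, plus strand: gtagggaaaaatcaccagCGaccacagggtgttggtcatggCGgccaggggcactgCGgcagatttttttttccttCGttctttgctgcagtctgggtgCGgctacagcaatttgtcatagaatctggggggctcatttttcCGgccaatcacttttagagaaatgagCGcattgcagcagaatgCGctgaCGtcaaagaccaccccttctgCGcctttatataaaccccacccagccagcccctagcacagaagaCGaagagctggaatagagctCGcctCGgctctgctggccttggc
Dio3, chr12:111517028-111517327, plus strand: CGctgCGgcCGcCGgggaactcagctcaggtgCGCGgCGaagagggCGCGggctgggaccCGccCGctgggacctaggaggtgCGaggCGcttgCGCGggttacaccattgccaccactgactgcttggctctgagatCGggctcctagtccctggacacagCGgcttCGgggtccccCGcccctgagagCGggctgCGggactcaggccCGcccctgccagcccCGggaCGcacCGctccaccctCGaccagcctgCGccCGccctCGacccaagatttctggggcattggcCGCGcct
The Dlk1 window held 9 CG dinucleotides, the Meg3 window 13 and the Dio3 window 31, against a median of 11 over the windows of 23648 annotated genes. The Dio3 window thus held more than 87.5% of windows, and 72.7% of its bases were G or C. The letters TGCCGC, searched on both strands as the core of the motif of the imprint guardian ZFP57, occurred once in the Meg3 window and not in the Dlk1 or Dio3 window; 13.7% of all windows held them. The windows of Rian and Mirg held 0 and 10 CG dinucleotides. Methylation was not measured in these samples.

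Mirg is the host of a cluster of microRNA hairpins, of which the annotation places 9 inside the gene. Of these, 7 matched RefSeq, which gives 13 mature sequences with 13 different seeds. The libraries were made from mRNA, so mature microRNAs were not measured: of 80 microRNA and small nucleolar RNA genes annotated between Dlk1 and Dio3, 49 had a row, 30 of these were at 0 at every stage, and the row with the highest base mean at any stage, Mir377, reached 9.83. The mature sequences of this hairpin are shown as the products of the domain with the most reads on their hairpin, with the seed (bases 2 to 8) in capitals.
mmu-miR-377-5p: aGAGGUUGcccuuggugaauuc
mmu-miR-377-3p: aUCACACAaaggcaacuuuugu

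Depth differed between the stages. The naive libraries held about 34.3 to 39.6 M reads on genes (M, megareads) and the others 15.1 to 19.4 M. The deposited tables give no count per library but a base mean per clone and stage, which is the mean of the normalised counts of the WT libraries and of 1 clone. The whole reads of each library were recovered from these means where a gene was low enough for the recovery to be unique, which held for 8 of 20 pairs of a gene and a stage: Dlk1 in naive and primed cells, and Mirg and Dio3 in primed cells, NPC and CM. Meg3 and Rian were too abundant at every stage, as were Dlk1 in NPC and CM and Mirg and Dio3 in naive cells. For these 12 pairs the base means are given, which have no error between replicates. Because both tables of a stage hold the same WT libraries, 2 times the difference of their base means is the difference of the KO8 and KO4 group means, and the ratio of the base means is the least by which the clones differ. A library is named by its group and a number in descending order of its size factor. The targeted gene followed the labels where its reads could be recovered: Zfp512b stood at 953 ± 33.5 normalised counts in WT, 205 ± 19.2 in KO4 and 169 ± 21.3 in KO8 primed cells (mean ± SD, n = 2 each), and at 1089 ± 39.0, 197 ± 18.1 and 164 ± 12.8 in CM.

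WT cells were compared between stages first, since these values did not enter the choice of genes. Dlk1 was near 0 in naive cells and rose in primed cells. Brought to the scale common to the stages, WT cells stood at 1.16 ± 1.22 normalised counts in naive (n = 3) and 119.7 ± 1.31 in primed cells (n = 2). The 3 naive libraries held 2, 0 and 4 reads. RNA came from whole cultures, so fewer cells of a type and less RNA per cell cannot be told apart. The log2 difference was 6.89 (SE 0.84, limma adjusted p = 1.21e-05), and Dlk1 passed the filter on low counts only through its primed libraries. In the same comparison 53.3% of 1348 genes tested were called and 50.5% were called higher in primed cells.

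The base means of Dlk1 were larger again in the differentiated cultures. On the common scale they were 1.47 with KO4 and 1.57 with KO8 in naive cells, 141 and 122 in primed cells, 15547 and 13968 in NPC, and 3120 and 8464 in CM. NPC cultures therefore held the highest level of Dlk1 in both tables and naive cells the lowest. These base means pool WT and clone libraries, so the order of the stages has no replicate error.

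Dio3 followed another order. Its base means on the common scale were highest in naive cells, at 470.5 with KO4 and 624 with KO8, and lowest in primed cells, at 11.6 and 9.37. In WT libraries Dio3 stood at 12.6 ± 0.43 normalised counts in primed cells, 51.5 ± 8.13 in CM and 88.0 ± 17.4 in NPC (n = 2 each, common scale). The rise over primed cells was 2.74 on the log2 scale in NPC (SE 0.43, limma adjusted p = 0.0011) and 1.97 in CM (SE 0.45, limma adjusted p = 0.00664). In these comparisons 74.2% of 4796 genes (48.2% higher in NPC) and 68.2% of 4746 genes (42.1% higher in CM) were called, so a call alone was common. The WT libraries of NPC and CM did not overlap for Dio3, but their difference was not tested.

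Mirg varied least among the genes with recovered reads. WT libraries held 215 ± 35.5 normalised counts in primed cells, 339 ± 37.1 in NPC and 178 ± 6.11 in CM (n = 2 each, common scale). NPC exceeded primed cells by 0.65 on the log2 scale (SE 0.16, limma adjusted p = 0.00921), a call that was lost without the second WT library of NPC (adjusted p = 0.0952) or of primed cells (adjusted p = 0.0593). CM and primed cells did not differ beyond their spread (-0.26, SE 0.17, limma adjusted p = 0.212). Stage cannot be told apart from culture medium, day of collection or a sequencing run.

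The base means of Meg3 and Rian, which lie with Mirg on the same strand, were lowest in naive cells and highest in NPC in the tables with KO4. For Meg3 these were 1767, 2842, 12716 and 2913 in naive, primed, NPC and CM on the common scale, and with KO8 1498, 2707, 10746 and 6301. Rian stood at 4626, 6472, 11443 and 6521 with KO4 and at 4161, 6081, 10018 and 10997 with KO8. In the tables with KO8, Rian was thus somewhat higher in CM than in NPC.

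**Figure D1:**
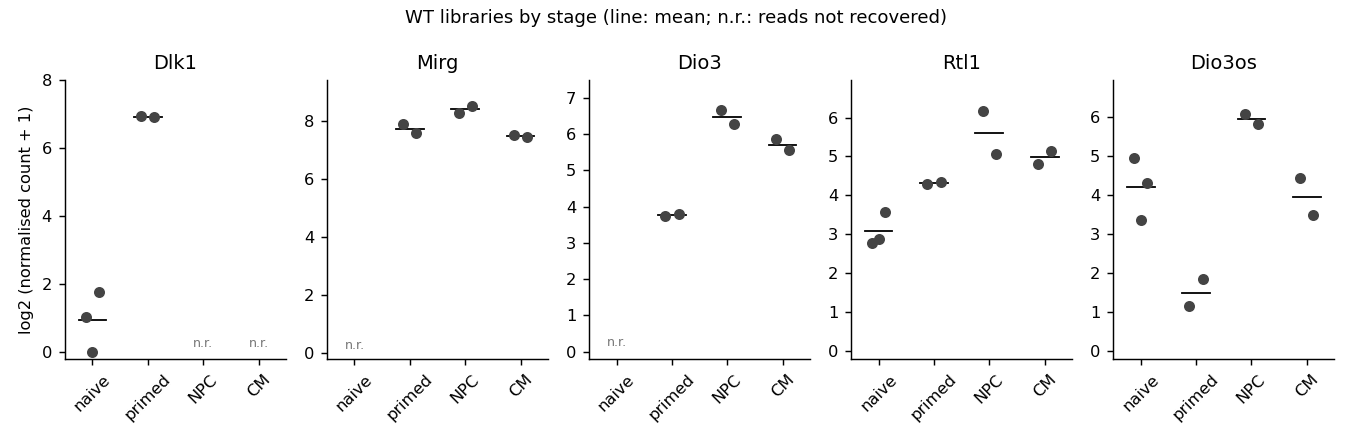
Normalised counts of the WT libraries on the scale common to the stages, as log2 (count + 1), for Dlk1, Mirg, Dio3, Rtl1 and Dio3os (points: libraries; lines: means). Dlk1 rose from 1.16 in naive to 119.7 in primed cells, and Dio3 and Dio3os were lowest in primed cells among the stages with recovered reads.

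The clones were then set beside WT cells at each stage. In naive cells no member could be fitted, because Dlk1 was too low and the other genes too abundant; among all genes tested 4.15% were called in KO4 and 4.87% in KO8. Dlk1 stood at 1.82, 0 and 4.18 normalised counts in WT, at 1.95, 2.03 and 5.21 in KO4 and at 0, 4.96 and 5.25 in KO8, so the groups overlapped at a level of at most 5 reads per library. The base mean of Meg3 was 3047 with KO4 and 2583 with KO8, that of Rian 7975 and 7174, and that of Mirg 262.0 and 225. These noncoding RNAs were therefore higher in naive KO4 than in naive KO8 by at least 1.18, 1.11 and 1.16 times. For Dio3 the order was the opposite, with 811 and 1076, and KO8 was at least 1.33 times KO4. Over genes whose mean over both tables was 50 or more, the 5th and 95th percentiles of the log2 ratio of these base means were -0.13 and 0.21. Meg3, at -0.24, Rian, at -0.15, Mirg, at -0.22, and Dio3, at 0.41, were outside them. A ratio of 1.5 in favour of KO8 was reached by 0.325% of these genes and by no member.

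In primed cells 2 members were fitted, Dlk1 and Mirg, and limma called 0 of them in either clone, beside 14% of all genes tested in KO4 and 9.59% in KO8. Dlk1 stood at 93.2 and 91.8 normalised counts in WT, 137 and 113 in KO4 and 98.7 and 92.5 in KO8. Both KO4 libraries lay above WT (log2 difference 0.43, SE 0.19), whereas those of KO8 overlapped with WT (0.05, SE 0.20). Among 5595 recovered genes with a mean of at least 10 reads, both KO4 libraries lay above both WT libraries in 1335. Mirg stood at 185 and 147 in WT, 150 and 171 in KO4 and 174 and 144 in KO8. All groups overlapped, and both clones differed from WT by -0.05 on the log2 scale (SE 0.16 each).

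Dio3 had few reads in primed cells and was not fitted. It stood at 9.51 and 9.98 normalised counts in WT, 6.11 and 10.3 in KO4 and 6.05 and 3.43 in KO8. The KO8 libraries were below those of WT, at 3 to 6 reads, and those of KO4 overlapped with WT. Both KO8 libraries lay below WT in 1589 of the 5595 genes compared, which leave out Dio3 as too low. Meg3 had base means of 2195 with KO4 and 2091 with KO8, and Rian of 4999 and 4697, so that the clones differed by at least 1.05 and 1.06 times, with KO4 the higher. Over genes whose mean over both tables was 50 or more, the 5th and 95th percentiles of the log2 ratio were -0.13 and 0.15. Dlk1, at -0.21, was outside them, as was Dio3, at -0.31 on few reads. A ratio of 1.5 in favour of KO8 was reached by 0.128% of these genes and by no member.

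By base means that pool WT and clone libraries, Dlk1, Meg3 and Mirg were highest in NPC; in KO8 alone Mirg was higher in CM, at 422 normalised counts on the common scale against 276 in NPC. The base mean of Dlk1 was 13502 with KO4 and 12130 with KO8, that of Meg3 11043 and 9332 and that of Rian 9938 and 8700. All 3 were higher in KO4 than in KO8, by at least 1.11, 1.18 and 1.14 times. Over all genes the 5th and 95th percentiles of the log2 ratio were -0.19 and 0.30, and Meg3, at -0.24, and Dio3, at -0.27, were outside them. At NPC 1.17% of genes and no member reached a ratio of 1.5 in favour of KO8.

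Mirg stood at 272 and 317 normalised counts in WT, 284 and 266 in KO4 and 247 and 233 in KO8 NPC. The KO8 libraries lay below those of WT (log2 difference -0.28, SE 0.16), and those of KO4 overlapped with them (-0.09, SE 0.14). Both KO8 libraries lay below WT in 1342 of 5367 genes. Dio3 stood at 87.1 and 65.7 in WT, 97.5 and 129 in KO4 and 76.5 and 86.4 in KO8. Here the KO4 libraries lay above WT (0.55, SE 0.24) and those of KO8 overlapped with WT (0.09, SE 0.29). Both KO4 libraries lay above WT in 1414 of 5367 genes. limma called 0 of these 2 members in either clone, beside 17.6% of all genes in KO4 and 0.203% in KO8. The latter share, 11 genes, became 1206 genes without the first KO8 library and 624 without the second.

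In CM cultures the clones diverged at all 5 genes. The base mean of Dlk1 was 2689 with KO4 and 7293 with KO8, which puts the KO8 mean 9208 normalised counts above the KO4 mean. KO8 therefore held at least 2.71 times as much Dlk1 as KO4 and at least 1.71 times as much as WT. For Meg3 the base means were 2510 and 5429, and KO8 held at least 2.16 times the level of KO4 and 1.16 times that of WT. Rian, at 5619 and 9475, was at least 1.69 times as high in KO8 as in KO4, and its order against WT is not fixed by these means. Whether KO4 differed from WT for Dlk1, Meg3 or Rian cannot be read from base means.

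Mirg, of these noncoding genes the furthest from Meg3, stood at 157 and 150 normalised counts in WT, 164 and 171 in KO4 and 344 and 383 in KO8 CM. Both KO8 libraries were above the others, at 2.36 times the WT mean (log2 difference 1.24, SE 0.16), while KO4 was slightly above WT (0.13, SE 0.18). Of 5205 genes, the KO8 libraries lay above WT in 1455 and the KO4 libraries in 1803. Between the clones the difference of Mirg was 1.11 (SE 0.15), a ratio of 2.17.

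Dio3 lay on opposite sides of WT in the clones. WT CM libraries held 49.4 and 39.5 normalised counts, KO4 16.4 and 5.26 and KO8 173 and 130. The 3 groups did not overlap: KO4 was at 0.244 times the WT mean (log2 difference -2.17, SE 0.57) and KO8 at 3.41 times (1.76, SE 0.28). The clones differed from each other by 3.93 on the log2 scale (SE 0.55), by 3.16 without the second KO4 library and by 4.71 without the first. The difference of KO4 from WT was -1.40 and -2.95 in these 2 cases. In 10.1% of 5205 genes the KO4 libraries lay below and the KO8 libraries above both WT libraries at this stage.

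Of the 2 members fitted in CM, limma called Dio3 in KO4 and both in KO8, where 46.7% and 20.9% of all genes were called; these contrasts chose the genes, and nothing is read from the counts. All 5 members had a ratio of base means of at least 1.5 in favour of KO8, beside 7.46% of 12179 genes. The 5th and 95th percentiles of the log2 ratio over all genes were -0.60 and 0.73, wider than at any other stage; Mirg, at 0.69, lay inside them, Rian, at 0.75, just outside, and Meg3, Dlk1 and Dio3 further out at 1.11, 1.44 and 1.83.

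**Figure D2:**
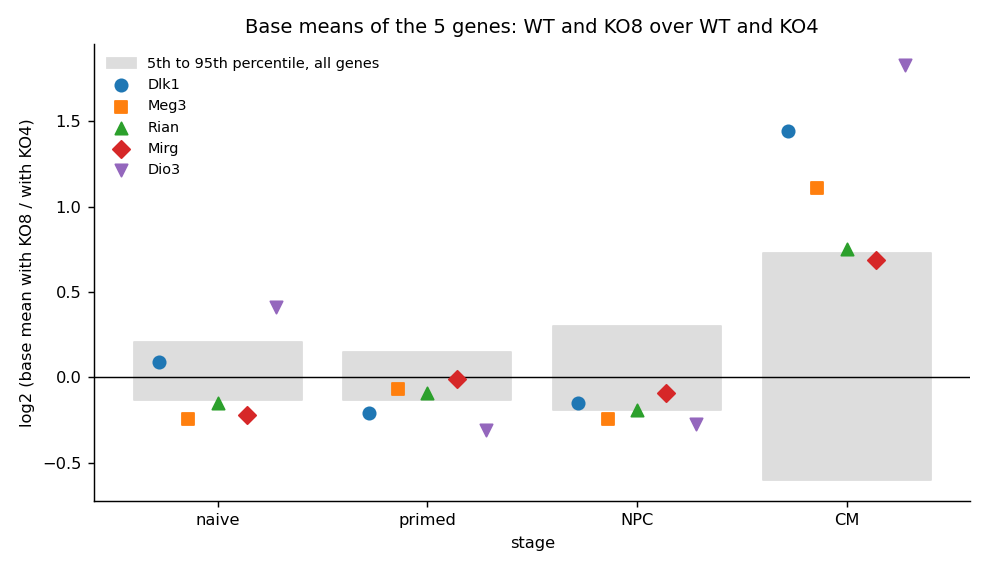
Log2 ratio of the base mean of WT and KO8 to that of WT and KO4, for each of the 5 genes (symbols) and stage, with the 5th to 95th percentile of all genes whose mean over both tables was 50 or more in grey. At CM all 5 genes were above 0, from 0.69 for Mirg to 1.83 for Dio3; at NPC all 5 were below 0.

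**Figure D3:**
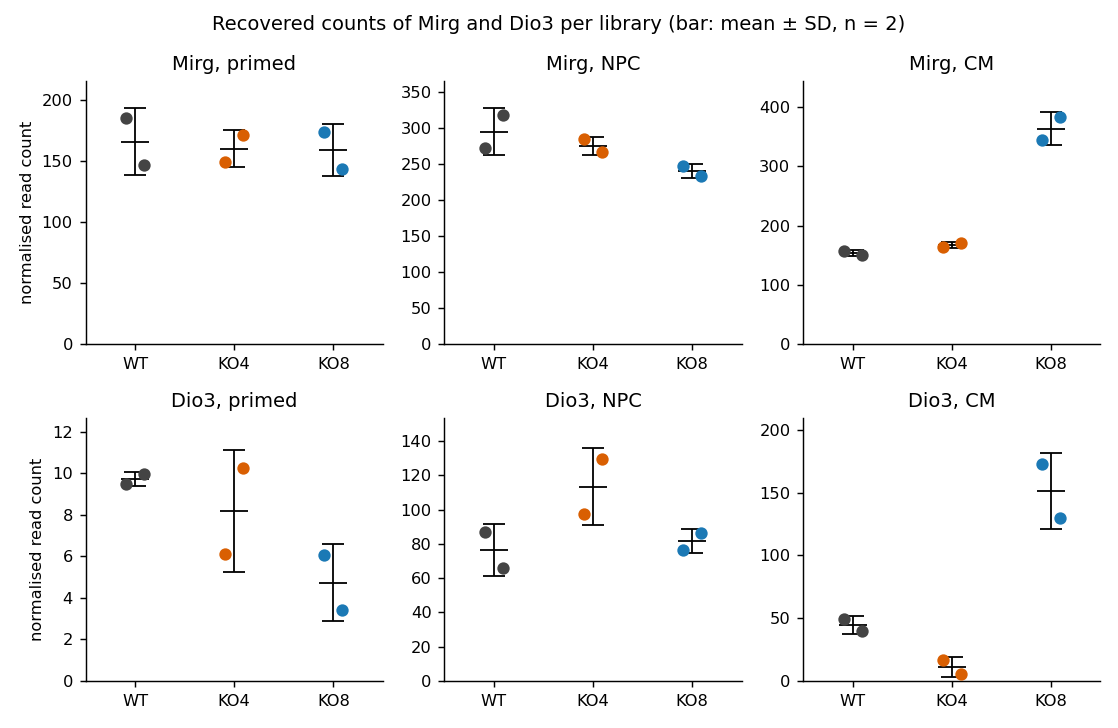
Normalised counts of Mirg (top) and Dio3 (bottom) in each library at the primed, NPC and CM stages (points; bars are mean ± SD, n = 2). In CM the KO8 libraries stand above WT for both genes, and for Dio3 the KO4 libraries, at 16.4 and 5.26, stand below WT.

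The neighbours inside the domain, Rtl1 and Dio3os, belong to a list that was chosen with earlier results of these data known. Rtl1, a protein derived from a retrotransposon that is needed in the placenta, stood at 23.3 and 29.6 normalised counts in WT CM, 27.7 and 9.46 in KO4 and 51.6 and 56.3 in KO8. KO8 was above WT by 1.03 on the log2 scale (SE 0.34, limma adjusted p = 0.0488), and KO4 overlapped with WT (-0.66, SE 0.53, adjusted p = 0.333). The call in KO8 was lost in 3 of 4 fits that left out 1 library, with adjusted p-values between 0.0447 and 0.19: those without WT library 1, KO8 library 1 or KO8 library 2. In primed cells Rtl1 lay above WT in both clones, at 14.3 and 15.0 in WT, 22.4 and 31.8 in KO4 and 31.2 and 26.3 in KO8, and did not pass the test (log2 differences 0.85 and 0.96, limma adjusted p = 0.218 and 0.176). Of 5595 genes, the libraries lay above WT in 1335 in KO4 and in 1255 in KO8. In NPC Rtl1 ranged from 26.9 to 61.5 without separating the groups.

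Dio3os, the noncoding RNA that starts beside Dio3 on the other strand, held 17.7 and 8.88 normalised counts in WT CM, 1.03 and 2.10 in KO4 and 44.1 and 25.6 in KO8. The KO4 values rest on 1 and 2 reads. The order of the groups was that of Dio3, but KO8 against WT did not pass the test (log2 difference 1.39, SE 0.52, limma adjusted p = 0.0746) and KO4 was too low to be fitted. In NPC both clones were below WT, at 26.1 and 39.6 in KO4 and 36.0 and 23.1 in KO8 against 57.7 and 48.0 (limma adjusted p = 0.151 and 0.269). Of 5367 genes, the libraries lay below WT in 1500 in KO4 and in 1342 in KO8. In WT cells Dio3os was 4.65 higher in NPC than in primed cells on the log2 scale (SE 0.41, limma adjusted p = 0.000105). The primed WT libraries held 1 and 2 reads, so Dio3os passed the filter on low counts only through NPC.

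Flanking genes on both sides were set beside the members. Among the listed genes 11 had a mean of 50 or more over both CM tables, all of them outside the domain. Of these 0 had a ratio of 1.5 or more in either direction. Among all 12179 genes at this level 909 were higher with KO8 and 621 lower by that factor, so nothing is read from this count. The ratios of the 11 flanking genes lay between 0.677 (Eml1) and 1.11 (Evl), with a median of 0.861. The nearest flanking gene upstream, Begain, had base means of 86.6 with KO4 and 66.2 with KO8, and the nearest downstream, Ppp2r5c, of 3229 and 3458. In KO4 CM, Begain rose by 1.19 (SE 0.26, limma adjusted p = 0.00284) and Slc25a29 by 1.03 (SE 0.34, adjusted p = 0.0266); the call of Slc25a29 was lost in all 4 fits without 1 library and that of Begain in none. In KO4 2 of 7 tested list genes were called higher and 0 lower, beside 21% and 25.7% of all genes, with a median log2 difference of 0.39 beside -0.04 over all genes. In KO8 1 of 8, Rtl1, was called higher, beside 10.1% of all genes, with a median of 0.23 beside -0.02.

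The same list was tested at the other stages. In naive cells limma called 0 of 4 tested genes in either clone, beside 4.15% of all genes in KO4 and 4.87% in KO8. At an unadjusted p under 0.05 it called 0. The medians were -0.32 in KO4 and -0.27 in KO8 beside -0.02 and 0.11 over all genes. In NPC limma called 0 of 8 in either clone, beside 17.6% of all genes in KO4 and 0.203% in KO8. At an unadjusted p under 0.05 it called 2 in KO4 and 0 in KO8. The medians were -0.01 and -0.07 beside -0.02 and 0.01. Of 8 tested in primed cells, 1 was called higher and 0 lower in KO4, beside 5.12% and 8.9% of all genes. In KO8 1 was called higher and 1 lower there, beside 4.57% and 5.02%. In primed cells Slc25a47, a mitochondrial carrier gene, was higher in both clones (log2 differences 2.27, SE 0.69, and 2.86, SE 0.61; limma adjusted p = 0.0169 and 0.000961) and Wdr25 was lower in KO8 (-0.56, SE 0.18, adjusted p = 0.0371). The WT libraries held 6 and 3 reads of Slc25a47, those of KO4 22 and 21 and those of KO8 32 and 30, so it passed the filter on low counts only through the clones. Without 1 library, the call of Slc25a47 held in 2 of 4 fits in KO4 and 4 of 4 in KO8, and that of Wdr25 in 0 of 4.

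**Figure D4:**
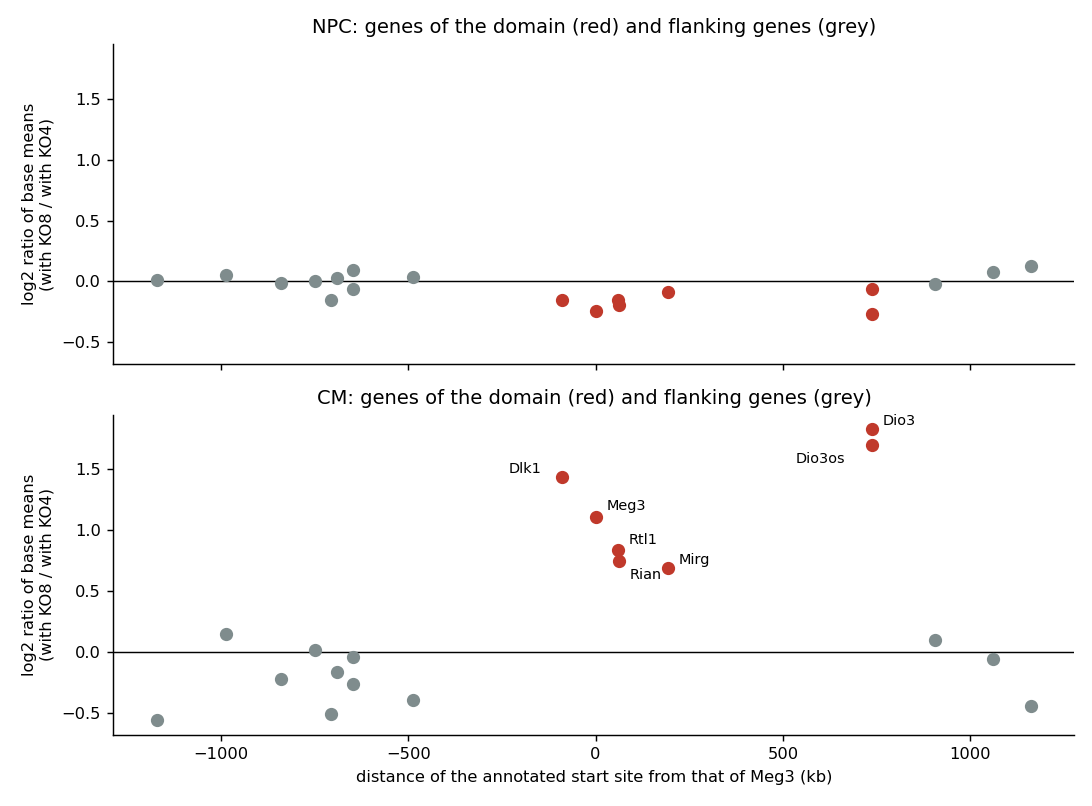
Log2 ratio of the base mean of WT and KO8 to that of WT and KO4 against the distance of each annotated start from that of Meg3 in kb, at NPC (top) and CM (bottom); red points are the 5 genes, Rtl1 and Dio3os, grey points are flanking genes. In CM the red points lie between 0.69 and 1.83 and the grey points between -0.56 and 0.15, whereas in NPC all lie between -0.27 and 0.13.

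Markers of several cell types differed between the clones' tables at the CM stage, together with the 5 genes. Markers of the labelled cell type were present in both tables. Myh6 and Myh7, the cardiac myosin heavy chains, had base means of 5885 and 11249 with KO4 and 8264 and 15905 with KO8. These pool WT and clone libraries, so they do not give the level of WT or of a clone alone. The study reported that cells of both clones did not form beating cardiomyocytes properly. Summed base means were 12877 with KO4 and 40553 with KO8 for the list of mesoderm and fibroblast-like markers, of which 4 of 5 had a ratio of at least 1.5, among them the collagens Col1a1 (7834 and 21288) and Col3a1 (4394 and 17192). The endoderm list stood at 3796 and 8185 (5 of 5) and the cardiomyocyte list at 24384 and 35518 (3 of 6). Lower with KO8 were the neural list, at 11235 and 4304 (5 of 6), the naive list, at 5601 and 2652 (4 of 6), and the primed list, at 17251 and 13622 (2 of 5). Pax6 and Sox1, which mark neural progenitors, had the lowest ratios, with 1654 and 88.2 for Pax6 and 2039 and 95.7 for Sox1. Over all genes with a mean of 50 or more at this stage, 909 of 12179 were higher with KO8 by a factor of 1.5 and 621 lower. No marker of these lists was at 0 in both tables.

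Where reads were recovered, the WT level of a marker could be seen as well. Nanog, a pluripotency factor, stood at 437 ± 111 normalised counts in WT, 1311 ± 143 in KO4 and 158 ± 26.3 in KO8 CM (n = 2 each), so KO4 was above and KO8 below WT. Klf4, the other marker of the naive list with recovered reads, stood at 273 ± 12.5, 100.1 ± 18.1 and 173 ± 6.44, so both clones were below WT and KO4 the lower. Mesp1, a factor of early cardiac mesoderm, stood at 8.99 ± 5.73, 21.4 ± 9.92 and 65.0 ± 20.9, and T, the other recovered marker of its list, at 107 ± 5.69, 106 ± 29.7 and 127 ± 5.00, where WT and KO4 overlapped. The part of these markers in the difference of the 5 genes was not tested. In NPC the sum of the mesoderm and fibroblast-like list was 18486 with KO4 and 17200 with KO8, with Mesp1 at 0, and that of the neural list 7294 and 8257.

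**Figure D5:**
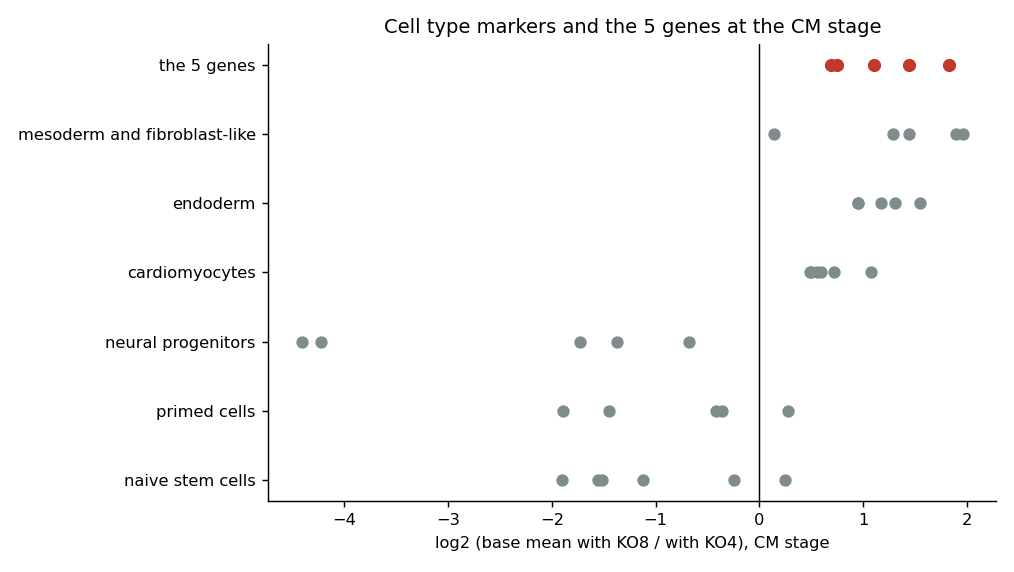
Log2 ratio of the base mean of WT and KO8 to that of WT and KO4 at the CM stage for the 5 genes (red) and for each marker of 6 cell type lists (grey; genes with a base mean under 10 left out). The 5 genes, the endoderm and the cardiomyocyte markers lie above 0, and 5 neural markers lie below 0.

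Genes known to act on imprints, on thyroid hormone or in the Notch pathway were described from fixed lists. Of 16 genes for setting or keeping imprints, between 0 and 2 per comparison were low enough to be tested. Dppa3, which protects maternal methylation in the zygote and marks naive cells, rose by 1.17 in KO4 CM (SE 0.21, limma adjusted p = 0.000949) and fell by 3.01 in KO8 CM (SE 0.39, limma adjusted p = 0.000331). By base means, 0 of the 16 reached a ratio of 1.5 in favour of KO8 in CM and 2 were lower by that factor. Over all genes these were 909 and 621 of 12179. The median ratio of the 16 was 0.902, and the lowest was Dnmt3l, a cofactor of de novo methylation, at 0.333. In NPC 2 of the 16 reached a ratio of 1.5 in favour of KO8 and 0 were lower by that factor. Over all genes these were 144 (1.17%) and 23 of 12313. The highest in NPC was Dnmt3l, at 1.84. In naive and primed cells 0 of the 15 and 16 genes reached that factor in either direction, beside 0.325% and 0.128% of all genes in favour of KO8. Zfp57, which keeps imprints methylated, had the lowest ratios there, at 0.879 and 0.899. In primed cells Aff3 rose in KO8 (0.62, SE 0.14, limma adjusted p = 0.00178; kept in 3 of 4 fits without 1 library), with 0.36 (SE 0.14, adjusted p = 0.0809) in KO4. In NPC Dnmt3l fell in KO4 (-0.91, SE 0.31, limma adjusted p = 0.0302), a call kept in 2 of 4 fits without 1 library, and stood at 0.86 in KO8 (SE 0.47, adjusted p = 0.363).

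Thyroid hormone genes, on which DIO3 bears as the inactivating enzyme, gave no call. limma called 0 of 3 tested genes in primed cells, 0 of 2 in NPC and 0 of 2 in CM in either clone; at an unadjusted p under 0.05 it called 1 in primed KO4, 1 in each clone of NPC and 0 elsewhere. In CM the medians were 0.18 in KO4 and -0.23 in KO8 beside -0.04 and -0.02 over all genes. The activating deiodinase Dio2 differed from WT by 0.42 in KO4 (SE 0.43, adjusted p = 0.442) and by -0.02 in KO8 CM (SE 0.50, adjusted p = 0.985). The receptor Thrb differed by -0.05 (SE 0.32, adjusted p = 0.909) and -0.43 (SE 0.32, adjusted p = 0.372). By base means the transporter Slc16a10 had a ratio of 1.94 in CM.

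The Dlk and Notch list could be tested in primed cells alone, apart from 1 gene in KO8 NPC that limma did not call (0 also at an unadjusted p under 0.05). In KO4 3 of 3 tested genes fell and in KO8 2 of 3, beside 8.9% and 5.02% of all genes called lower, with median log2 differences of -0.89 and -0.60 beside -0.06 and -0.05 over all genes. Notch4, a Notch receptor, fell by 0.89 in KO4 (SE 0.13, limma adjusted p = 2.48e-07) and by 0.60 in KO8 (SE 0.12, limma adjusted p = 0.000796). Dll1, a Notch ligand, fell by 0.47 in KO4 and 0.54 in KO8 (limma adjusted p = 0.027 and 0.0142), calls that held in 1 and 2 of 4 fits without 1 library. Hey1, a target of Notch signalling, fell by 1.12 in KO4 (SE 0.32, limma adjusted p = 0.00986), which held in 1 of 4 such fits, and stood at -0.73 in KO8 (SE 0.29, adjusted p = 0.104). Dlk1, the domain's relative of these ligands, was 0.43 above WT in KO4 at this stage, without a call. In CM the base mean of Dll1 was 0.138 times as high with KO8 as with KO4, and that of Dlk1 2.71 times. Dll1 was the lowest of 8 list genes compared by base means there, with a median of 0.924 and Hey1 the highest at 1.31. Of the 8, 1 was lower and 0 higher by a factor of 1.5, beside 621 and 909 of 12179 genes.

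Genes with the most similar pattern were sought for Mirg and Dio3 over the 18 libraries of primed cells, NPC and CM, among 2207 genes with a mean of at least 50 reads, after the mean of each stage was subtracted. The libraries share stages and clones, so the correlations are a description. For Dio3 the 3 highest were Ampd3 (r = 0.921), Selenbp1 (0.914) and Nr1h5 (0.913). For Mirg they were Eln (0.849), which encodes elastin, Dpm3 (0.844) and Pheta2 (0.836). The members themselves were not among each other's 3 nearest.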

How the data were processed

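The authors trimmed the reads with Trim Galore 0.6.7, aligned them to mm9 with HISAT2 2.2, obtained counts by featureCounts and ran DESeq2 1.46.0 on a clone and its WT libraries, stage by stage. As deposited, each of 8 tables holds a base mean per gene, a normalised signal that the authors averaged over the libraries compared, and 5 columns of their own comparison (log2 fold change, its standard error, test statistic, p-value and adjusted p-value), which were not used. Strand and multi-mapping settings are not given in the sources used here.

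A base mean is a sum of whole reads, each divided by the size factor and the number of libraries. Size factors were read from genes with 1 read in 1 library, and the WT ratios of both tables of a stage spread by at most 0.490%. Reads were recovered where 1 set of whole numbers gave both base means of a stage or was over 1000 times as likely as any other set. The likelihood assumed a spread within groups (dispersion 0.03), and sets of very wide spread were not searched. Counts of small spread within groups were thus favoured. For the recovered members, Rtl1 and Dio3os, 1 set was found at each stage. In simulated base means, 100% of the genes for which a set was accepted were exact at every stage (9858 genes in CM). The simulation changed some genes in KO4 and none in KO8, fewer than were called in CM, with a spread near the assumed one. Of 1400 shifted, impossible values, 3 were accepted below the limits used. The main fits cover genes under a base mean of 300 (naive 30). Counts of Zfp512b and Nanog given above lie beyond this limit. There only sets within a bound on the spread were kept, so the SDs of these counts are bounded. The limit, the tolerances and the bound on the spread above it were chosen after seeing how many shifted values were accepted, how many genes had no solution and how many genes each set called.

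Recovered counts were fitted with limma 3.58.1 (voom, R 4.3.3), each clone with the WT libraries of its stage, for genes with a mean count of at least 10 and a Benjamini-Hochberg adjusted p under 0.05. As the files gave no counts, the design was changed: fits cover recovered genes only, WT stages were fitted in pairs, and stages were brought to one scale by the median ratio of base means over 10069 genes. The alternatives were a trend fit on log2 values with a pseudocount of 1 or 5, no filter, other scalings, all groups in one fit, genes at higher levels and leaving out each library. Recovered libraries carry no replicate number of the labels and were numbered by descending size factor.

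The named genes were the 5 members, 16 domain and flanking genes, lists of 16 imprint, 8 thyroid hormone and 9 Dlk and Notch genes (in each list those called in both clones, otherwise the most abundant), and the 3 genes of most similar pattern. The members and lists were chosen with earlier results of these data known. Promoters and coordinates came from the mm9 genome with the GENCODE annotation, and microRNAs from RefSeq. Python 3.11.15, numpy 2.4.6, pandas 2.3.3, scipy 1.17.1, numba 0.67.0 and matplotlib 3.10.9 were used.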

Additional observations from a re-analysis of the deposited data

Results flagged for a closer look

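Dio3 and Dio3os were on opposite sides of WT in the 2 clones at the CM stage, with every KO4 library below and every KO8 library above both WT libraries. For Dio3 the KO4 mean was 10.84 and the KO8 mean 151.4 normalised counts, beside 44.41 in WT. For Dio3os, which starts close to Dio3 on the other strand, they were 1.565 and 34.87, beside 13.29 in WT. This difference between the clones was not tested, because it was among the values that chose Dio3. The same order of the 3 groups was found in 10.1% of the 5205 genes examined at this stage, in 130 of 5367 at NPC, in 75 of 5595 in primed and in 1 of 1357 in naive cells. Groups of 2 or 3 libraries were too small for a search for single libraries that stand apart.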

How the results depend on the processing

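No paired analysis was possible because the recovered libraries carry no replicate number, so no fit with a replicate block was run. The fit of all 27 libraries and scaling by total reads were not run either, since reads were recovered for part of the genes.

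No difference that passed the threshold changed sign. Of 48 differences, 13 that had not passed it changed sign when 1 library was left out, among them Rtl1 in CM KO4 (-0.66 to 0.08), Rtl1 in NPC KO4 (0.32 to -0.21) and KO8 (-0.05 to 0.51), Dio3os in naive KO8 (-0.26 to 0.14), Dio3 in NPC KO8 (0.09 to -0.10) and Mirg in both primed clones (-0.05 to 0.13 and 0.12). Over all settings, of the log2 differences of members and neighbours from WT, 271 kept their call or stayed within the spread, 4 moved, 6 lost and 2 gained a call; between WT stages these were 86, 0, 5 and 12, and between clones 116 stayed and 6 moved. The members' calls between WT stages were all kept except that of Mirg in NPC against primed cells, whose log2 difference lay between 0.49 and 0.83 without 1 library. Dio3 differed between the clones in CM by 3.16 to 4.71 and Mirg by 1.03 to 1.19 without 1 library.

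Counts of called genes depended on the setting, and the cause was not tested, except that the higher levels add genes. Without the filter 286 (KO4) and 308 (KO8) genes were called in naive cells, 82 and 355 in primed cells, 92 in NPC KO8 and 1460 between WT primed and naive cells. The trend fit with a pseudocount of 1 called 147 and 152 in naive cells and 371 in NPC KO8, and with a pseudocount of 5 178, 193 and 379. With all 3 groups in one fit 130 and 130 were called in naive cells and 112 and 253 in NPC; median-of-ratios scaling gave 112 in NPC KO8. Genes at higher levels, without and with the bound on the spread, brought 539 and 542 in naive KO4, 517 and 547 in naive KO8, 1808 and 1827 in primed KO4, 1505 and 1506 in primed KO8, 1670 and 1633 in NPC KO4, 205 and 517 in NPC KO8, 4735 and 4773 in CM KO4, 2202 and 2321 in CM KO8, 1287 and 1245 between WT primed and naive cells, 7055 and 6906 between NPC and primed, and 6467 and 6433 between CM and primed. The bound keeps genes of small spread.

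Without 1 library, limma called 0 to 84 genes in naive KO4 and 0 to 77 in naive KO8 (both 0 without WT library 1, where 199 and 233 passed an unadjusted p under 0.05), 285 to 470 in primed KO4 (lowest without WT library 2), 271 to 400 in primed KO8 (lowest without KO8 library 1), 511 to 768 in NPC KO4 (lowest without KO4 library 1), 0 to 1206 in NPC KO8 (0 without either WT library, with 365 and 484 unadjusted, and 1206 without KO8 library 1), 1743 to 1897 in CM KO4, 550 to 1340 in CM KO8 (lowest without KO8 library 1), 493 to 769 between WT primed and naive cells, 2431 to 3420 between NPC and primed and 2316 to 2797 between CM and primed. In naive cells the limit on recovery leaves 1326 and 1396 genes to test.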

Other observations

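Mir3072, a microRNA gene that RefSeq places on the same chromosome and that the mm9 annotation used here does not list, was looked at after its values were seen. Its base means were 6.8 with KO4 and 20.6 with KO8 in CM, 27.6 and 20.9 in NPC, 9.5 and 7.0 in primed and 13.9 and 10.9 in naive cells, so the table with KO8 was the higher in CM and the lower at the other stages.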
